A study of Arabidopsis thaliana with 9 samples.

Results

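RBOHE (AT1G19230, a respiratory burst NADPH oxidase) and UND (AT4G12920, UNDEAD, an aspartic protease) are 2 genes tied to the timing of tapetal cell death in Arabidopsis thaliana. They were taken by locus, with earlier results of these data known, and each was read by 1 probe set that the annotation gives to that gene alone, out of 13356 genes with such a probe set and 22746 non-control probe sets. Anthers of stages 4 to 7 had been dissected from floral buds of plants aged 3 to 4 weeks, grown at 22 °C with 16 h of light and 8 h of dark. The 9 arrays hold 3 samples each of wild type (Columbia), dyt1 and ams, described by the labels as biological replicates. The labels name no allele of either mutant, and the same growth conditions were given for all groups.

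The tapetum is the innermost layer of the anther wall. It feeds the developing pollen and then dies by a programmed process that has to come neither too early nor too late. RBOHE is an oxidase of the plasma membrane that makes superoxide from NADPH, and in Arabidopsis its loss or misexpression shifts tapetal degeneration. UND is a target of the transcription factor MYB80, and its silencing brings tapetal death forward. DYT1 and AMS are bHLH transcription factors of the tapetum, with DYT1 acting upstream of AMS, so the 3 groups ask how far both genes depend on either factor.

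Values are log2 expression levels without detection calls, so a low level cannot be told from background. The lower quartiles of the 9 arrays lay between 4.58 and 4.78, and a level within or under this range is read here as not told from background. Differences were tested with limma over all probe sets, and a change was called at a Benjamini-Hochberg adjusted p under 0.05. Passes at an unadjusted p under 0.05 are listed by gene only. Their share over all probe sets is not given, so they are no result about a list.

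The arrays did not fall apart by genotype alone. The 25S ribosomal RNA control probe set was above 11 in wild type 3, dyt1 2 and all 3 ams arrays (high 25S arrays, 11.5 to 12.4) and between 5.51 and 9.59 in the other 4 (low 25S arrays). A sign of RNA quality moved with this division. The 3' probe set of actin exceeded the 5' one by 2.10 to 2.92 in the first set and by 1.04 to 1.38 in the second. The median level of plastid-encoded genes divided in the same way, at 7.76 to 8.49 in the first set and 9.28 to 10.3 in the second. Whether RNA quality itself or the preparation of the samples differed was not tested. All ams arrays were high 25S arrays, and wild type 1 and 2 were low 25S arrays. Differences of ams from wild type therefore cannot be fully told apart from the array set. Wild type 1 and 2 also stood apart by weak RNA spike-ins, with means of 3.85 and 3.76 where every other array had 6.67 or more. AMS itself stood at 7.93, 7.70 and 7.55 in wild type, at 5.66, 3.96 and 4.78 in dyt1 and at 9.61, 9.36 and 9.37 in the arrays labelled ams. The position of the probe set with respect to the mutation in ams is unknown here, and the AMS signal therefore is no check of that label. DYT1 had no probe set in the annotation used here.

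RBOHE was high in wild type and low in both mutants. Its log2 level was 8.34, 8.32 and 7.84 in wild type 1, 2 and 3, with a mean of 8.17 ± 0.28 (SD, n = 3). It was 5.66, 3.70 and 5.21 in dyt1, with a mean of 4.86 ± 1.03. In the arrays labelled ams it was 5.76, 4.08 and 4.61, with a mean of 4.82 ± 0.86. The lowest wild-type array lay 2.19 above the highest dyt1 array and 2.08 above the highest ams array, so neither mutant overlapped wild type. The mutants overlapped each other throughout, and their arrays varied more than the wild-type arrays, with ranges of 1.96 and 1.68 against 0.49.

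The fall of RBOHE passed the test in ams. The log2 change was -3.35 (SE 0.55, 95% interval -4.60 to -2.10, limma adjusted p = 0.0151), a signal ratio of 10.2. It was the 21st lowest difference among the 22746 probe sets. RBOHE was thus called lower and UND was not, where 1.06% of all probe sets were called lower in this comparison. Non-overlap of this kind occurred for 16.3% of all probe sets.

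In dyt1 the RBOHE difference was nearly as large and did not pass. It was -3.31 (SE 0.55, 95% interval -4.56 to -2.06, limma adjusted p = 0.0650), a signal ratio of 9.93, in 3 of 3 arrays. By limma 0 of the 2 genes were called lower in dyt1, where 0.119% of all probe sets were. At an unadjusted p under 0.05 RBOHE alone passed there. Values under wild type in all arrays occurred for 8.26% of probe sets in dyt1. The exact permutation test, two-sided, gave p = 0.1 for RBOHE in each mutant, the smallest that 3 arrays against 3 allow.

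The mutants could not be ordered for RBOHE. The difference of dyt1 minus ams was 0.037 on the log2 scale (95% interval -1.21 to 1.29, limma adjusted p = 0.981), and 4.87% of all probe sets were called in that comparison in either direction. The interval leaves room for a difference of more than 2-fold either way. Both mutant means lay just above the range of the lower quartiles, dyt1 2 and ams 2 lay under it, and ams 3 lay within it. The signal ratios above are therefore bounded by background on the low side.

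**Figure D1:**
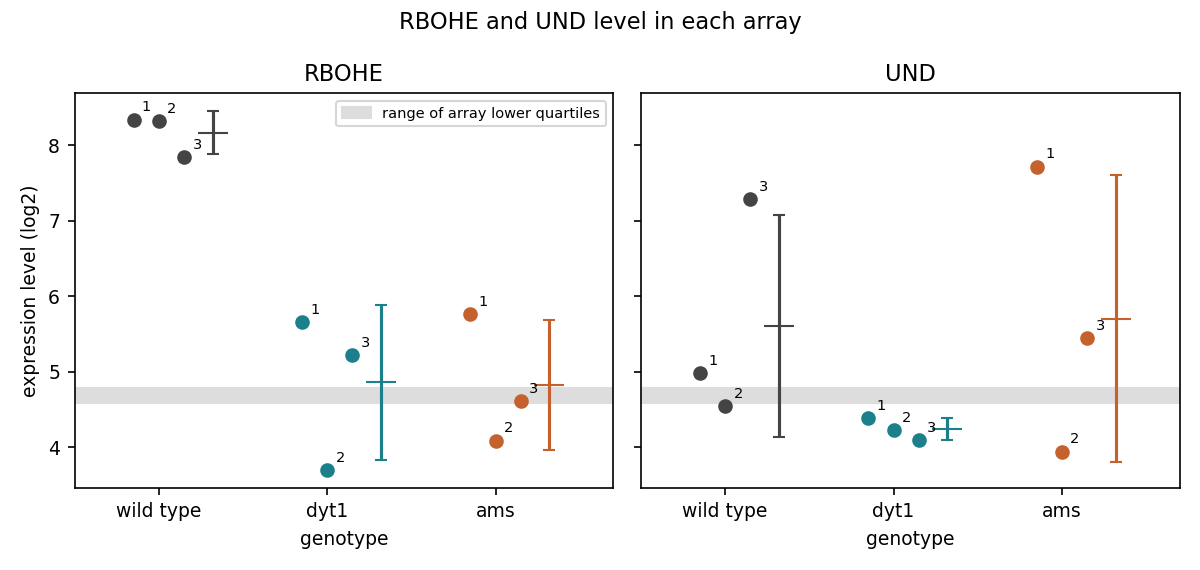
Log2 expression level of RBOHE (left) and UND (right) in each of the 9 arrays, with points numbered by array and bars showing the mean and SD of 3 arrays. The grey band spans the lower quartiles of the 9 arrays, 4.58 to 4.78; RBOHE is at 7.84 or more in wild type and at 5.76 or less in both mutants, and UND is clearly above the band in wild type 3 and ams 1.

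RBOHE was lower in the mutants inside each set of arrays. Among the low 25S arrays it averaged 8.33 in wild type 1 and 2 and 5.44 in dyt1 1 and 3, a difference of -2.89 (limma adjusted p = 0.000535). In these arrays 1885 of the 22746 probe sets were called lower in dyt1. Genotype cannot be told apart from spike-in level there. Among the high 25S arrays, wild type 3 stood at 7.84, dyt1 2 at 3.70 and the ams arrays between 4.08 and 5.76. The difference there was -4.15 in dyt1, 1 array against 1 with no replicate check, and -3.03 in ams (adjusted p = 0.0601), with the lone wild-type array assumed to vary like the ams arrays.

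Single arrays moved both RBOHE calls. In ams the adjusted p rose to 0.0737 and 0.0619 without wild type 1 or 2 and to 0.0681 and 0.0631 without ams 2 or 3. The ams difference stayed between -3.82 and -2.98 over the 9 omissions of an array. In dyt1 the change passed without wild type 3 (-3.47, limma adjusted p = 0.0447), without dyt1 2 (-2.73, limma adjusted p = 0.0266) and without both (-2.89, limma adjusted p = 0.00743). These fits called 288, 185 and 1505 of the 22746 probe sets lower in dyt1. Without wild type 3 only wild-type arrays with weak spike-ins remain, so genotype cannot be told apart from spike-in level there.

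UND was at or near background in most arrays. Its log2 level was 4.98, 4.54 and 7.29 in wild type 1, 2 and 3, with a mean of 5.60 ± 1.48 (SD, n = 3). It was 4.38, 4.22 and 4.09 in dyt1 (4.23 ± 0.15), all under the range of the lower quartiles. In the arrays labelled ams it was 7.72, 3.94 and 5.45 (5.70 ± 1.90). Wild type 3 and ams 1 stood far above the other arrays, ams 3 lay in between, and ams 2 was the lowest of all 9. The spread within wild type (range 2.75) and within ams (range 3.78) exceeded every difference between group means.

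None of the UND comparisons passed the test. In dyt1 the difference from wild type was -1.37 (SE 0.95, 95% interval -3.54 to 0.80, limma adjusted p = 0.540). All 3 dyt1 arrays lay under all 3 wild-type arrays, but by a gap of only 0.16, and the exact permutation p was 0.1. In ams the difference was 0.097 (95% interval -2.07 to 2.27, adjusted p = 0.965), and the groups overlapped. Its sign turned to -0.017 with each array centred on its median and to -0.74 with the array set as a block. The difference of dyt1 minus ams was -1.47 (95% interval -3.64 to 0.70, adjusted p = 0.412), and at an unadjusted p under 0.05 neither gene passed there. The order of means was ams, wild type, dyt1, and no neighbours in it differed beyond their spread.

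The array sets moved with UND only in part. Among the high 25S arrays wild type 3 had a UND level of 7.29, dyt1 2 one of 4.22 and the ams arrays levels of 3.94 to 7.72, and among the low 25S arrays it did not exceed 4.98. Without wild type 3 the dyt1 difference was -0.53 (adjusted p = 0.772). In dyt1, where all 3 levels lay under the background range, no fold is given.

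**Figure D2:**
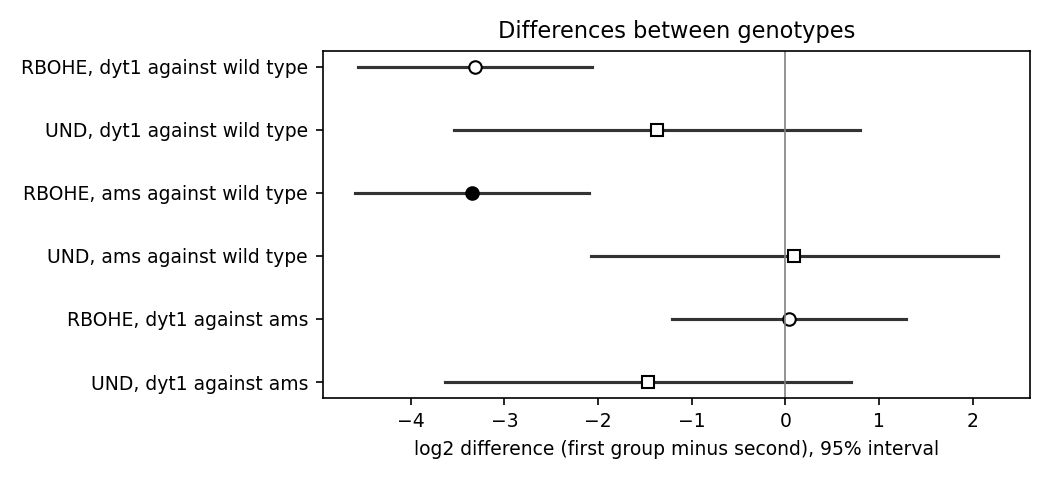
Log2 difference between group means for RBOHE (circles) and UND (squares) in the 3 comparisons, with the 95% interval of the limma fit; a filled marker has an adjusted p under 0.05. The intervals of RBOHE against wild type lie below 0 in both mutants (-4.56 to -2.06 and -4.60 to -2.10), and all UND intervals include 0.

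The genes were also compared in their response, through the difference of RBOHE and UND within each array, in which a constant of either probe set cancels. In ams RBOHE changed by -3.45 more than UND did, and the exact permutation p was 0.1, the smallest possible. In dyt1 the corresponding value was -1.94 (exact permutation p = 0.3) and for dyt1 against ams it was 1.50 (exact permutation p = 0.2). With 3 arrays against 3 no such test could pass, and the p-values of the 3 comparisons were left unadjusted. In dyt1 UND lay under the background range in all 3 arrays.

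The levels of tapetal markers were lower than wild type in dyt1, by unequal amounts between arrays, and went both ways in ams. Of 6 tapetum markers 3 were measured, namely A9, a classic tapetum-specific gene, ATA27, an anther beta-glucosidase, and AMS. Their summed signal ranged from 7953 to 11853 in wild type, from 54.1 to 2296 in dyt1 and from 2490 to 6237 in ams. The mean of their log2 levels was 9.24 to 10.7 in wild type, 4.11 to 6.92 in dyt1 and 9.59 to 10.7 in ams. The lower sum in ams came with A9 (10.4, 10.3 and 9.99 against 13.0, 12.9 and 13.1 in wild type), which holds most of the wild-type sum. ATA27 (9.09 to 12.0 in ams, 7.13 to 11.6 in wild type) and AMS had higher means in ams. A9 was at 11.1, 4.68 and 10.8 in dyt1, so in dyt1 1 and 3 it lay above every ams array. In dyt1 2, where RBOHE was lowest, A9 (4.68) lay in the background range and ATA27 (3.69) and AMS (3.96) under it. The part of these markers in the RBOHE result was not tested. In whole anthers, fewer tapetal cells and less RNA per cell cannot be told apart.

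UND was highest where that marker mean was highest, in wild type 3 (10.7) and ams 1 (10.7), but it was 3.94 in ams 2, where the mean was 9.59. The single markers did not run alike with UND. A9 was 13.0 in wild type 1, where UND was 4.98, and 10.4 in ams 1, where UND was 7.72. ATA27 was 11.6 in wild type 3 and 12.0 in ams 1, but 11.7 in ams 3, where UND was 5.45. AMS was 7.55 in wild type 3 and 9.61 in ams 1. Of 6 meiocyte markers 2 were measured, SDS and SPO11-1, with summed signals of 59.9 to 165 in wild type, 69.2 to 120 in dyt1 and 73.6 to 153 in ams. The sum was lowest of all arrays in wild type 3. None of the 6 endothecium and epidermis markers and 1 of the 6 markers of other floral organs were measured. That one, the ovule gene INO, stood at 5.63 to 6.26 in wild type, 4.67 to 5.33 in dyt1 and 5.19 to 5.93 in ams. The part of any of these in the UND values was not tested.

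The related oxidases that could be read were not told from background. Of the 10 respiratory burst oxidases of Arabidopsis 3 were measured. RBOHG lay between 3.91 and 4.21 over the 9 arrays, and RBOHI between 3.46 and 4.82, so all their group means were under the background range. A fall could therefore not have been seen in either. The list had 1 gene called lower in ams, RBOHE itself (1.06% of all probe sets), and 0 in dyt1 (0.119%), with medians of 0.0018 and 0.040 beside -0.055 and 0.046 over all probe sets. Of 7 activators of these oxidases 2 were measured, the receptor kinase FER, which senses peptide signals at the cell surface, and BIK1, a receptor-like cytoplasmic kinase of immune signalling. Neither passed in any comparison, also at an unadjusted p under 0.05, with differences between -0.40 and 0.41. None of the 10 listed scavengers of superoxide and hydrogen peroxide had a probe set named by the annotation.

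Of 11 aspartic proteases of described role 7 were measured, with median differences of -0.38 in dyt1, 0.072 in ams and -0.45 for dyt1 against ams. By limma 0 passed in dyt1, where 0.193% of all probe sets were called, and 0 in dyt1 against ams, where 4.87% were. At an unadjusted p under 0.05 A36 alone passed in dyt1, APA2 alone in dyt1 against ams, and A36, A39 and NANA in ams. These passes are not set against all probe sets and are not read as a result about the list. A36, a membrane-anchored protease of pollen and pollen tubes, fell in ams. It was at 6.07, 6.16 and 5.41 in wild type and at 4.89, 4.40 and 4.28 in ams (log2 change -1.36, SE 0.28, limma adjusted p = 0.0376), with the ams mean under the background range. The adjusted p of A36 was above 0.05 in 7 of the 9 omissions of an array, up to 0.154 without wild type 1. Its paralogue A39 differed by -1.17 in ams (adjusted p = 0.133). A39 passed there without wild type 3 (-1.55, limma adjusted p = 0.0187) and in no other omission of 1 array. It also passed without wild type 3 and dyt1 2 (limma adjusted p = 0.00195). Called lower in ams were 2280 of the 22746 probe sets in the first of these omissions and 4169 in the second. APA1, a vacuolar protease, lay between 12.1 and 12.8 in every array. NANA, a chloroplast protease, was at 6.54, 6.63 and 6.49 in wild type and at 7.33, 7.76 and 6.75 in ams (0.73, adjusted p = 0.136). APA2 differed by -0.44 in dyt1, 0.072 in ams and -0.51 for dyt1 against ams.

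PASPA3, an aspartic protease that marks developmental cell death, varied most of the list. It was at 8.06, 8.23 and 11.1 in wild type, 11.5, 4.68 and 11.3 in dyt1 and 12.3, 11.8 and 12.4 in ams. Its difference was 0.010 in dyt1 (adjusted p = 0.998) and 3.01 in ams (adjusted p = 0.331). The ams difference of PASPA3 passed without dyt1 2 (limma adjusted p = 0.0493) and without wild type 3 and dyt1 2 (4.00, limma adjusted p = 2.76e-05). Called higher in ams in these fits were 1044 and 3693 of the 22746 probe sets. The ams difference of PASPA3 passed in no other omission of 1 array, with adjusted p up to 0.621 without wild type 1. In the low 25S arrays PASPA3 was higher in dyt1 (3.23, limma adjusted p = 0.000375), where 2564 of the 22746 probe sets were called higher. By contrast, dyt1 2 minus wild type 3 was -6.44 for PASPA3, 1 array against 1 with no replicate check.

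**Figure D3:**
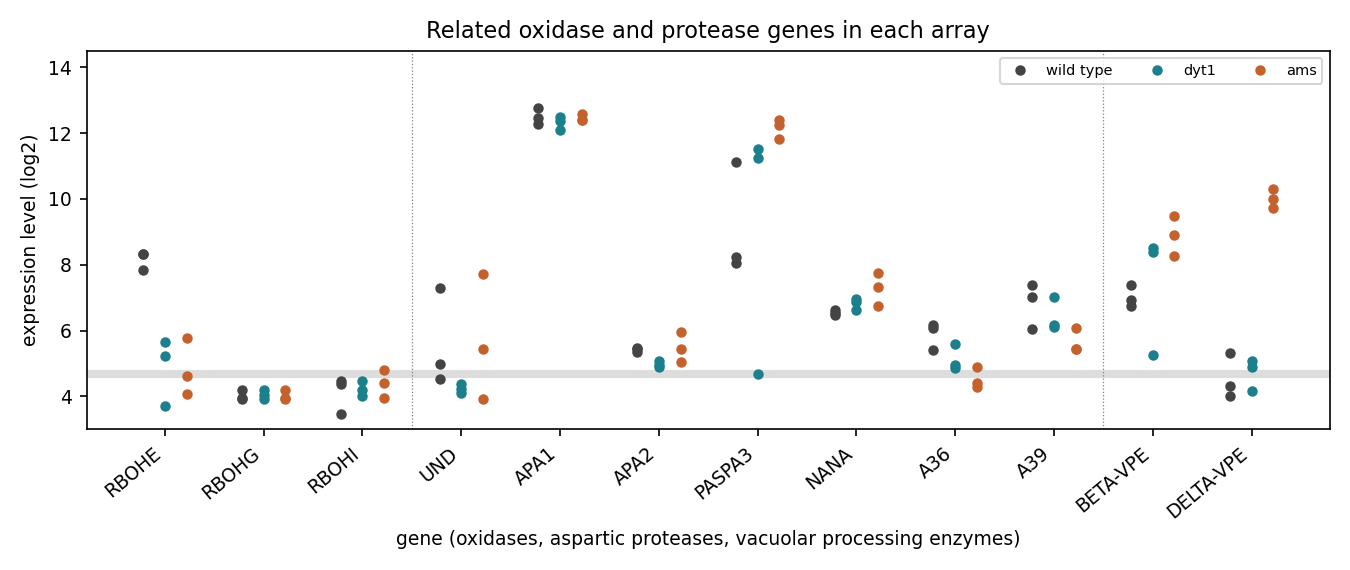
Log2 level of RBOHE, UND and related oxidase and protease genes in each array, coloured by genotype, with the range of the arrays' lower quartiles in grey. Levels of different probe sets are not comparable with each other; of the 3 oxidases RBOHE alone has group means above the background range, and DELTA-VPE is at 9.72 or more in all 3 ams arrays.

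Apart from RBOHE, no measured gene of the lists for tapetal cell death and for cell death proteases, nucleases and regulators was called lower against wild type. Of 7 genes of tapetal cell death and MYB80 targets, 3 were measured: RBOHE, UND and BETA-VPE, a vacuolar processing enzyme. BETA-VPE was at 6.93, 6.74 and 7.38 in wild type, 8.38, 5.25 and 8.52 in dyt1 and 9.47, 8.91 and 8.28 in ams. Its difference was 0.37 in dyt1 (adjusted p = 0.866) and 1.87 in ams (adjusted p = 0.212). Without dyt1 2 it was 1.43 in dyt1 (adjusted p = 0.0672), and the ams difference passed (adjusted p = 0.0120). Without wild type 3 and dyt1 2 both passed, at 1.61 in dyt1 (limma adjusted p = 0.0173) and 2.05 in ams (limma adjusted p = 0.00220). Of the 22746 probe sets, 1044 were called higher in ams in the first of these fits and 3693 in the second. In dyt1 the second fit called 2215 higher. In dyt1 the sign of BETA-VPE turned without dyt1 1 (-0.13) or dyt1 3 (-0.20), and dyt1 2 minus wild type 3 was -2.13. RBOHE is the only gene of this list called in ams, where 1.06% of all probe sets were called lower. VGD1 shares its probe set with another gene and is not reported singly.

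Of 18 proteases, nucleases and regulators of cell death 8 were measured, with medians of -0.092 in dyt1 and 1.16 in ams. DELTA-VPE, another vacuolar processing enzyme, rose in ams (5.45, limma adjusted p = 0.000134). It was the only one called there, where 2.45% of all probe sets were called higher. In dyt1 0 were called, where 0.193% of all probe sets were, and none passed at an unadjusted p under 0.05. In ams BETA-VPE too passed at an unadjusted p under 0.05. Of 10 tapetum transcription factors 3 were measured, and AMS alone passed. It was lower in dyt1 (-2.93, limma adjusted p = 0.0288), where 0.119% of all probe sets were called lower. In ams it was higher (1.72, limma adjusted p = 0.0413), where 2.45% were called higher. AMS was also lower in dyt1 than in ams (-4.65, limma adjusted p = 0.000288), where 4.87% were called in either direction. Both AMS calls against wild type were lost with some omissions of 1 array. The adjusted p rose up to 0.164 in dyt1 without wild type 1 and up to 0.146 in ams without ams 1. Of 7 reference genes 3 were measured and none passed, with medians of 0.19 in dyt1 and -0.062 in ams. Over all probe sets 0.193% were called in dyt1 and 4.87% in dyt1 against ams, and in ams 1.06% lower and 2.45% higher. At an unadjusted p under 0.05 SAND passed in dyt1, TIP41 in ams and both in dyt1 against ams.

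The genes whose levels ran most like RBOHE over the 9 arrays were found by Pearson's r among 6433 genes that ranged over at least 1 on the log2 scale. AT5G59490 was closest (r = 0.996), followed by AT1G67920 (0.988), the kinase gene WNK9 (0.969), AT5G15140 (0.969) and AT1G28710 (0.964). AT5G59490 was at 8.20, 7.94 and 7.37 in wild type, 5.62, 3.69 and 4.96 in dyt1 and 5.55, 4.07 and 4.22 in ams. In all, 35 genes exceeded 0.9.

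For UND the closest gene was AT1G16950 (r = 0.973), followed by AT2G35730 (0.957), AT4G30030 (0.948), AT2G36950 (0.948) and AT1G26710 (0.934). AT1G16950 was at 5.35, 5.36 and 7.66 in wild type, 5.10, 4.20 and 4.94 in dyt1 and 7.71, 4.17 and 5.87 in ams, so it too was high in wild type 3 and ams 1. For UND 12 genes exceeded 0.9. These correlations describe 9 arrays that share genotype and array set, and the UND values rest on the high arrays.

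**Figure D4:**
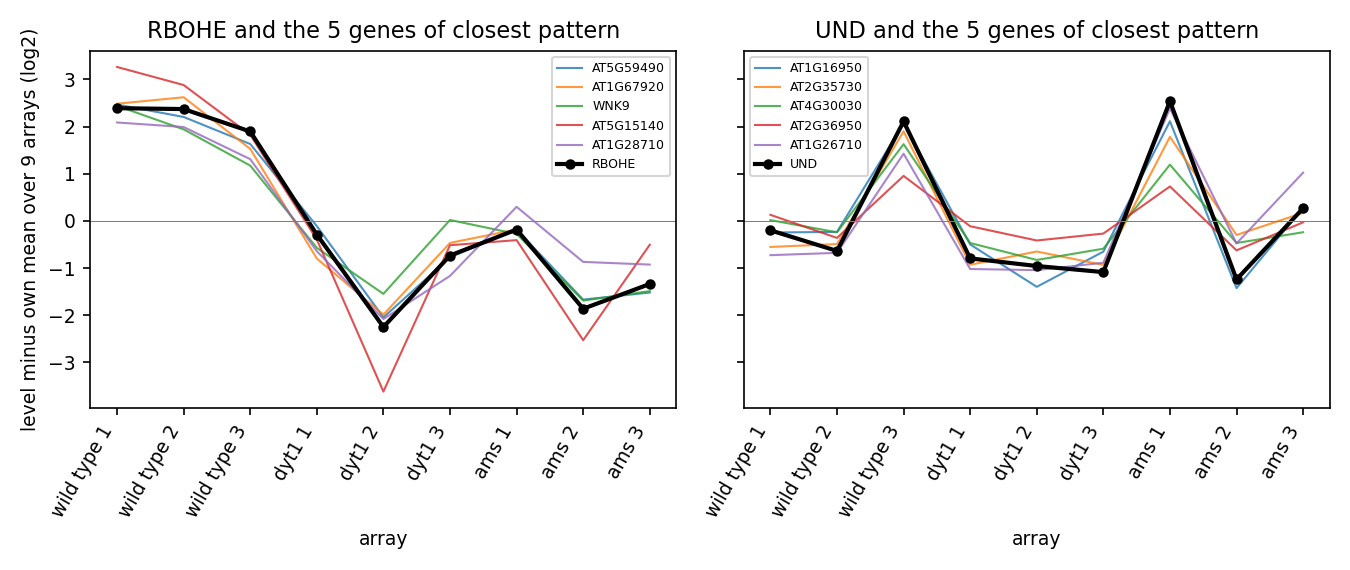
Level minus the gene's own mean over the 9 arrays (log2) for RBOHE (left, black), UND (right, black) and the 5 genes of closest pattern to each; lines only join the arrays of one gene. The RBOHE group is high in wild type and lowest in dyt1 2, and the UND group peaks in wild type 3 and ams 1.

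Neighbouring genes, taken by their order in the RefSeq annotation, did not share the RBOHE pattern. Of the 6 protein-coding genes flanking RBOHE, 3 on each side, 3 were measured, and their r with RBOHE ranged from -0.15 to 0.50. Of the 6 flanking UND 3 were measured, and AT4G12930, the next gene, had r = 0.767 with UND. AT4G12930 was at 4.28, 4.46 and 8.92 in wild type, 5.21, 3.83 and 5.06 in dyt1 and 7.72, 6.50 and 7.52 in ams. It was thus high in wild type 3 and in all 3 ams arrays, including ams 2, where UND was lowest. None of the 6 measured neighbours was called by limma in any comparison. At an unadjusted p under 0.05 SCPL20 passed in ams and AT1G19210 and AT4G12930 in dyt1 against ams.

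**Figure D5:**
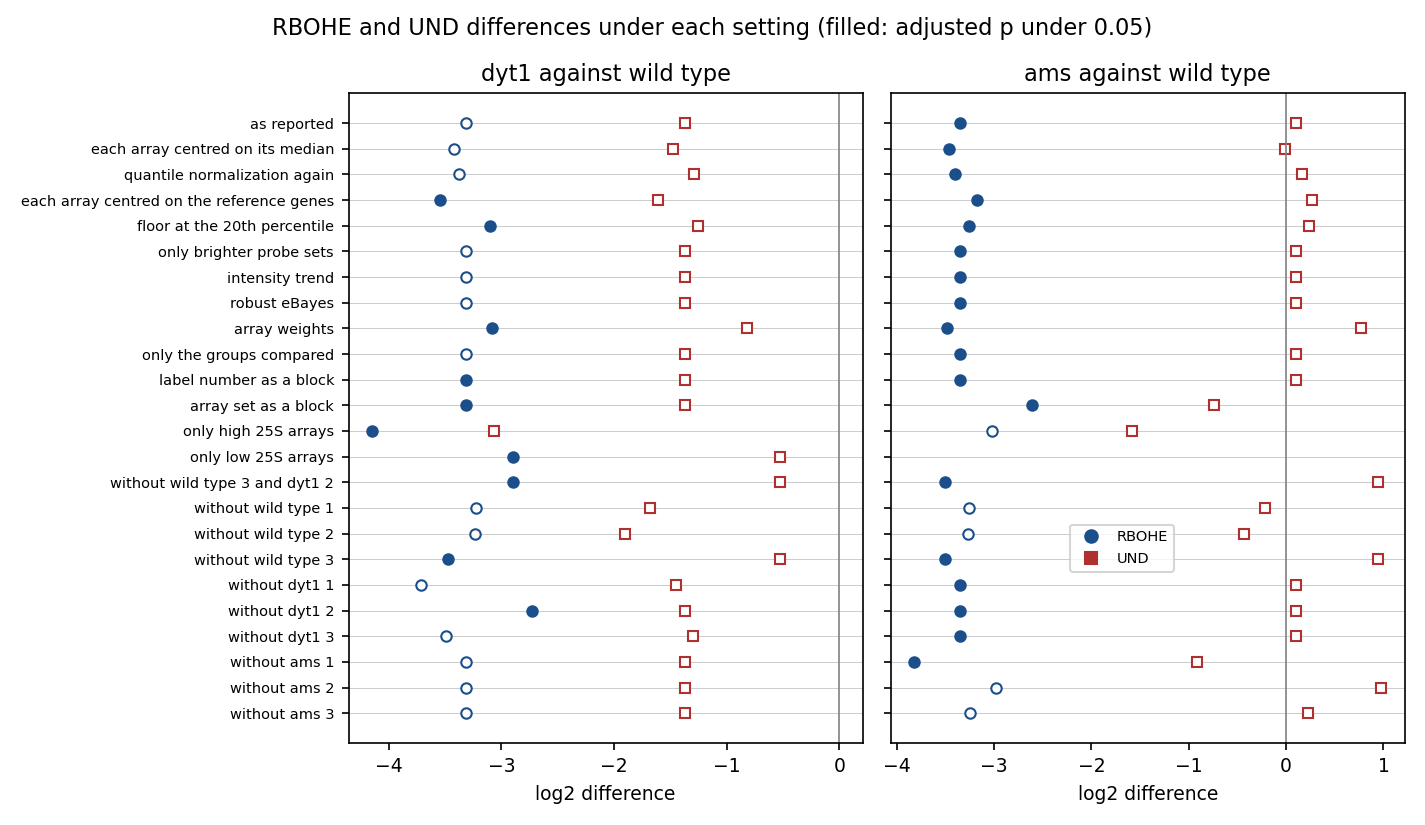
Log2 difference from wild type of RBOHE (circles) and UND (squares) in dyt1 (left) and ams (right) under each way of processing or choosing arrays; filled markers have an adjusted p under 0.05. RBOHE stays between -4.15 and -2.73 in dyt1 and between -3.82 and -2.61 in ams, while UND in ams lies on both sides of 0; the dyt1 value of the high 25S arrays sets 1 array against 1.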

How the data were processed

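The deposited values are log2 levels, 1 for each probe set and array, which the authors obtained with RMA, as the submitters' processing notes name it; neither a version nor a joint normalization of the 9 arrays is stated. Of 22810 probe sets, 64 controls were left out of the tests. The platform annotation gave 1 gene to 13513 probe sets, several to 503 and listed no gene for 8730; 13436 matched RefSeq (TAIR10.1), used for names and gene order only. A gene was read by its brightest probe set. RefSeq lists RBOHE only by its locus. All 9 arrays entered one fit of the group means in limma 3.58.1 (R 4.3.3) with adjustment (Benjamini-Hochberg) over 22746 probe sets. Precision is limited by having 3 arrays a group. On data simulated for dyt1 against wild type, with 200 of 22746 probe sets changed, 32.8%, 91.0% and 95.5% were recovered at 2-, 4- and 8-fold. The simulated noise was independent for each probe set and array and held no array sets. These shares are therefore no measure of power in the real arrays, where RBOHE with a ratio of 9.93 was not called in dyt1.

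Of 96 genes in 12 lists, 30 were measured, that is, named by the annotation as the only gene of a probe set. The others may still be read by shared probe sets or by some of the 8730 with no listed gene. The text names both genes, all measured genes of the oxidase, aspartic protease and tapetal cell death lists, called genes of the other lists, and the 5 genes of closest pattern; neighbours, reference and marker genes were added. Genes and lists were chosen with earlier results of these data known. An aspartic protease family by RefSeq descriptions was not analysed here. Alternatives covered scaling, a floor, a filter, variance models, array weights, blocks and omitted arrays.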

Additional observations from a re-analysis of the deposited data

How the results depend on the processing

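RBOHE stayed lower than wild type in both mutants under all alternatives run. In dyt1, where it missed the threshold, it passed with arrays centred on the reference genes (-3.55) and a floor at the 20th percentile (-3.10). It also passed with array weights (-3.09) and with the array set (25S signal above or below 11) as a block (-3.31). Array weights called 3994 of the 22746 probe sets lower in dyt1. In the low 25S arrays or without wild type 3 and dyt1 2 together RBOHE passed as well (-2.89 each). For dyt1 against wild type these are the same arrays, wild type 1 and 2 and dyt1 1 and 3. Genotype cannot be told apart from spike-in level there. In the high 25S arrays the RBOHE difference in dyt1 was -4.15, 1 array against 1, whose spread comes from the ams arrays alone. Leaving out 1 array gave -3.71 to -2.73. The RBOHE call in ams was lost in the high 25S arrays (-3.03), and omissions of 1 array gave -3.82 to -2.98. The RBOHE difference of dyt1 minus ams turned to -0.37 with reference genes, -0.70 with the array set as a block and -1.12 in the high 25S arrays, and omissions gave -0.36 to 0.62. UND in ams turned to -0.017 with median centring, -0.74 with the array set as a block and -1.59 in the high 25S arrays, and omissions gave -0.91 to 0.98. UND kept its sign in dyt1 against wild type and against ams (omissions -1.90 to -0.53 and -2.35 to -0.46) and was called in none of its 67 alternative fits. The cause of these changes was not tested.

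Whether the label numbers pair the arrays was not settled. In their deviations from the group means, same-numbered arrays correlated at -0.012 to 0.24, over 0.1 in 4 of 9 pairs. Arrays were closest to their own number in 9 of 18 cases, each with 3 arrays to choose from. With the replicate number as a block RBOHE was -3.31 in dyt1 (adjusted p = 0.0453).

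The number of probe sets called in dyt1 against wild type was 44, and became 29 with quantile normalization again, 151 with reference genes, 90 with the floor, 8744 with array weights, 8 with only the groups compared, 274 with the array set as a block, 2544 and 4449 in the high and low 25S arrays, 3720 without wild type 3 and dyt1 2, 3 at an adjusted p under 0.01, and 1 to 702 with 1 array left out. In ams against wild type the 798 became 8916 with array weights, 1201 in the high 25S arrays, 7862 without wild type 3 and dyt1 2, 259 at 0.01, and 279 to 4146 with 1 array left out. In dyt1 against ams the 1108 became 1968 with reference genes, 8956 with array weights, 1979 with only the groups compared, 729 with the replicate block, 3487 in the high 25S arrays, 5958 without wild type 3 and dyt1 2, 289 at 0.01, and 354 to 2945 with 1 array left out. Centring on the reference genes moved the median difference over all probe sets by -0.24, 0.17 and -0.41 in the 3 comparisons, and median centring moved it by -0.11 in each mutant against wild type. Among the 9 related genes, 51 of 575 uncalled differences changed sign and 31 were called under some alternative, 1 of them with the opposite sign (PASPA3).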

Other observations

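Of the 8 measured genes of the list of cell death proteases, nucleases and regulators, 4 are given here, picked after their values were seen. DMP4 was at 5.24, 5.64 and 7.77 in wild type, at 5.34, 4.46 and 5.14 in dyt1 and at 5.85, 5.31 and 7.27 in the arrays labelled ams. EXI1 was at 4.88, 5.04 and 7.02 in wild type, at 5.13, 4.73 and 5.67 in dyt1 and at 4.77, 4.76 and 6.40 in ams. Both were highest in wild type 3 and next highest in ams 3, whereas UND was highest in ams 1. ALPHA-VPE was at 5.27, 5.14 and 6.63 in wild type, at 5.57, 4.95 and 5.93 in dyt1 and at 6.06, 5.32 and 5.79 in ams, so it was highest in wild type 3 and next highest in ams 1. SCPL48, a serine carboxypeptidase, was at 8.27, 8.57 and 11.4 in wild type, at 9.34, 7.12 and 9.04 in dyt1 and at 10.9, 10.9 and 11.3 in ams. None of the 4 was called by limma in any comparison, and at an unadjusted p under 0.05 SCPL48 alone passed, in dyt1 against ams.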
